A study of Mus musculus with 6 samples.

Results

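The genes described here are 32 mouse genes of the p53 pathway: Trp53 itself, the genes that control its protein, and genes whose transcription p53 is known to switch on. They were taken by name from a list of the pathway, whatever their level, and each was found as 1 row of the deposited table, which has 23793 rows in all. Of the 32, 30 had a mean of at least 1 FPKM over all libraries and were tested with the 11693 rows that met this minimum. FPKM is the number of sequenced fragments scaled by transcript length and by library size, so levels of different genes can be compared per length.

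The RNA came from endothelial cells sorted by flow cytometry from the lungs of mice at postnatal day 7, on a mixed strain background. There were 3 libraries from mutant lungs and 3 from control lungs, named mutant A, B and C and control A, B and C. The sample titles name Vegfa and Shh for both groups and the title of the series places Vegfa in the epithelium; the alleles, the driver of any recombinase and the number of animals per library were not stated. A mutant and a control library with the same letter form a pair, and a value within a pair is the mutant library minus the control library of that letter on the log2(FPKM + 1) scale.

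The endothelial identity of the cells was visible in every library: the summed level of 10 pan-endothelial markers was 4587 to 5078 FPKM in mutant and 5692 to 6646 FPKM in control libraries. Without Cldn5, which was at 798 to 1250 FPKM in mutant and 2042 to 2430 FPKM in control libraries, the other 9 overlapped at 3337 to 3963 FPKM in mutant and 3651 to 4216 FPKM in control libraries. The 8 leukocyte markers summed to 5.25 to 35.8 FPKM in mutant and 8.75 to 39.3 FPKM in control libraries, with Cd3e and S100a8 among those at 0 in at least 1 library. The 10 mesenchymal markers summed to 303 to 1242 FPKM in mutant and 422 to 1358 FPKM in control libraries, and the 8 alveolar type 2 and airway markers to 43.5 to 123 FPKM in mutant and 67.9 to 212 FPKM in control libraries, and both sums overlapped between groups. The markers of the Car4-high capillary cells, 8 genes, summed to 174 to 342 FPKM in mutant and 825 to 966 FPKM in control libraries. Among them Apln went the other way in mutant C, where it made up most of the sum. It was at 25.3 (A), 41 (B) and 243 FPKM (C) in the mutant, against 169 (A), 82.5 (B) and 119 FPKM (C) in the control libraries. The markers of general capillary cells, 7 genes, summed to 1945 to 2911 FPKM in mutant and 1947 to 2087 FPKM in control libraries. Alveolar type 1 markers (7 genes) summed to 681 to 1320 FPKM in mutant and 895 to 1075 FPKM in control libraries, and Cav1, which endothelium also expresses, made up most of that sum. Without Cav1 the other 6 summed to 30.3 to 48.2 FPKM in mutant and 87.1 to 104 FPKM in control libraries, so that the groups were apart; among them Hopx was at 5.87 to 21.6 FPKM in mutant and 58 to 60.8 FPKM in control libraries, while Ager and Pdpn overlapped. Mesothelial markers (4 genes) summed to 11.4 to 39.5 FPKM in mutant and 14.9 to 50 FPKM in control libraries, and erythroid and platelet markers (6 rows, Ppbp among those at 0 in at least 1 library) to 20 to 45.1 FPKM in mutant and 41 to 160 FPKM in control libraries. Xist, the RNA of the silenced X chromosome, was at 0.071 FPKM in mutant C and 0.0924 FPKM in control C and at 33.3 to 57.9 FPKM elsewhere. Sex was thus matched within pairs, and pair C differed in sex from pairs A and B. In the sample descriptions, both libraries of pair A carry another prefix than those of pairs B and C; what the prefix stands for is not stated, and within-pair values are given for the members described in full. Total fragment numbers are unknown. The spacing of the lowest values gave depths of 0.941, 1.35 and 1.48 for mutants A, B and C, and of 1.28 and 0.891 for controls B and C, relative to control A.

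p53 is a transcription factor that is made continuously and degraded through the ubiquitin ligase Mdm2, aided by its relative Mdm4. When DNA damage or other stress stabilises the protein, it switches on genes that halt division, repair DNA, restrain growth or start apoptosis, and it switches on Mdm2, which closes a feedback loop. In endothelium, p53 is known for its part in the response to irradiation. Because p53 is regulated mainly at the level of its protein, the RNA of its targets is the usual readout of its activity in expression data. Several targets also answer to other factors: Ccng2 and Sesn3 to FoxO proteins, Sesn2 and Gdf15 to the integrated stress response, and Plk2 and Plk3 to growth factor and stress signals.

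p53 binds DNA at a response element made of a pair of similar decamers. RefSeq windows ran from 250 bases before to 50 bases after each start site (GRCm38.p6, the build of mm10). Of the 32 members, 24 had windows that were counted in the member shares, 38 windows in all. No window of Trp53inp1, Pmaip1, Perp, Zmat3, Tnfrsf10b, Rrm2b, Ddb2 or Xpc was counted in them. The member shares below therefore say nothing about those members. How far leaving them out changed the contrast with all genes was not tested. The p53 consensus decamer, which is its own reverse complement and so is read on both strands at once, had an exact match in windows of 8 of these 24 genes (33.3%), against 9.55% of the 27025 genes with a window. By window the shares were 23.7% of 38 and 8.36% of 32851. A pair of exact decamers with a spacer of at most 13 bases was in 0 of the 38 windows and in 0.0731% of all windows. A looser search for 2 adjacent decamers, with the central C, A or T, A or T, G of each intact and at most 3 mismatches elsewhere, found windows of 3 members (Bbc3, Aen and Trp53), which is 12.5% of the 24 genes, against 0.673% of all genes; the number of mismatches was set after the windows had been read. These matches are letters in a window and not measured binding.

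The matches of the regulators Mdm2 and Trp53 and of 3 well-known targets are printed, as the stretches of these genes that resemble the recognition sequence. Aen, Ei24, Sesn1 and Polk also had matches, which are not printed. Capitals mark the matched bases, and each line runs 5′ to 3′ along the gene's own strand.
Mdm2, chr10:117710925-117710954, minus strand, 186 bases before the start: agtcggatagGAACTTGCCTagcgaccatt
Trp53, chr11:69580274-69580313, plus strand, 75 bases before the start: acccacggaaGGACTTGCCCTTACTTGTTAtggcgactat
Ccng1, chr11:40755452-40755481, minus strand, 185 bases before the start: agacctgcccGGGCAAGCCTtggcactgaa
Bax, chr7:45467080-45467109, minus strand, 201 bases before the start: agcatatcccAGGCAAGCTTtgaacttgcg
Bbc3, whole window, chr7:16309333-16309632, plus strand, match 97 bases before the start: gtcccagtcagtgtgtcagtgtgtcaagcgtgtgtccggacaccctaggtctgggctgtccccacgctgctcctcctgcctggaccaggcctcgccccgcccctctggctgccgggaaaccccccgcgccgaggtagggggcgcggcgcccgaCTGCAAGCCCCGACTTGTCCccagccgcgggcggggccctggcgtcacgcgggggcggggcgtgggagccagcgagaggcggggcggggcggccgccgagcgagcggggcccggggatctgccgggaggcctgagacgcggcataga
The Bbc3 match lies inside the gene's annotated span; of the 3 windows of Bbc3, this one alone held a match. The windows of Phlda3, Fas, Cd82 and Psrc1, which are described below with Bbc3 as the members whose groups did not overlap, held neither kind of match. No match says only that these letters are absent from these 300 bases.

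No member passed the test. With limma at an adjusted p under 0.05, 0 of the 30 tested members were lower and 0 higher in the mutant, where the share of all tested rows was 0.137% lower and 0% higher. With the pair as a block, 0 members passed as well, against 0.0513% lower and 0% higher of all rows; at an unadjusted p under 0.05 that fit gave 3 members lower and 3 higher (Trp53 added), against 6.88% and 5.39% of all rows. At an unadjusted p under 0.05, 3 of 30 members were lower (Bbc3, Phlda3 and Fas) and 2 higher (Cd82 and Psrc1), which is 10% and 6.67% of the members against 4.29% and 3.81% of all rows. In the same 5 genes the mutant values all lay on one side of the control values, and the shares of all rows with groups apart in this way were 6.57% lower and 7.12% higher. The median log2 fold change of the 30 members was -0.03, with -0.06, -0.11 and -0.03 within pairs A, B and C, against 0.02 over all tested rows. Of the 30, 18 had a lower and 12 a higher mean in the mutant; 60% of the members were thus lower, against 45.4% of all rows, of which 54.6% were higher. In all 3 pairs 8 members were lower and 4 higher, which is 26.7% and 13.3%, against 17.2% and 19.6% of all rows. The difference was under 0.25 in size (log2) for 19 of the 30. In bulk RNA, fewer cells of a type and less RNA per cell cannot be told apart. The summed Car4-high capillary markers, Cldn5, and the summed alveolar type 1 markers without Cav1 were lower in all 3 mutant libraries than in any control. Within that alveolar type 1 sum, Hopx, Gprc5a and Spock2 were each lower in this way, while Ager, Pdpn and Aqp5 overlapped between groups. The part of these markers in the differences of the members was not tested.

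**Figure D1:**
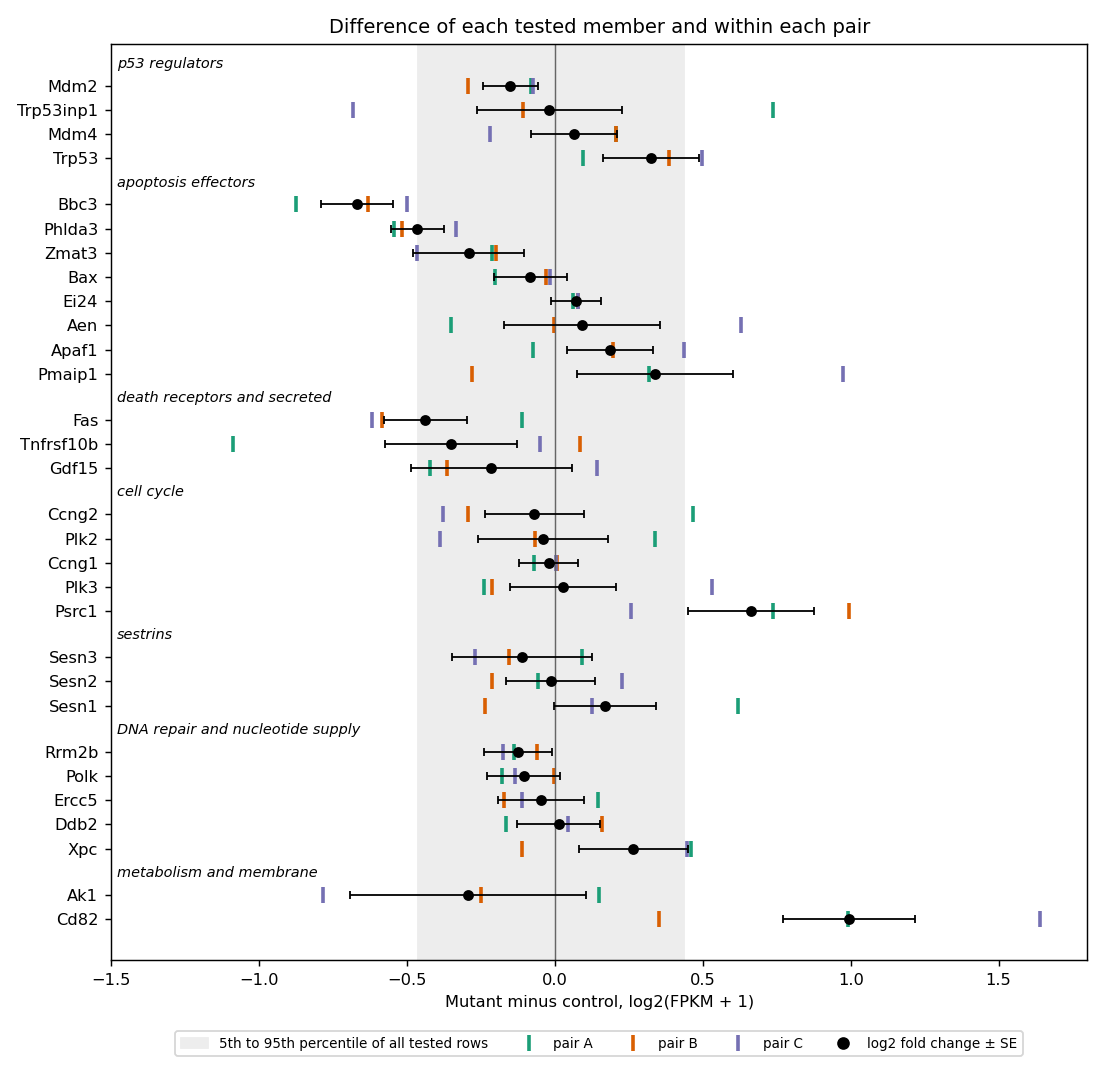
Difference between mutant and control for each of the 30 tested members on the log2(FPKM + 1) scale, ordered by role; black points with bars are the log2 fold change ± SE over 6 libraries, coloured ticks are the 3 pairs, and the grey band holds the 5th to 95th percentile of all tested rows (-0.46 to 0.44). Bbc3 lies to the left of the band at -0.67 and Phlda3 at its edge at -0.46, Cd82 and Psrc1 to its right at 0.99 and 0.66, and most of the other members near 0.

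The regulators came first in the order of the pathway. Trp53 (chromosome 11, 69580348 to 69591873, RefSeq annotation of GRCm38.p6, as for the genes below) stood at 70.4 (A), 84 (B) and 107 FPKM (C) in the mutant, against 65.9 (A), 64.1 (B) and 75.3 FPKM (C) in the control libraries. Mutant C was the highest library and mutant A lay below control C, so the groups overlapped, while each mutant library was above the control of its pair (0.10, 0.39 and 0.50). The log2 fold change was 0.33 ± 0.16 (SE, n = 3 each; limma adjusted p = 0.675). The unadjusted p was 0.0868 and 0.0322 with the pair as a block, where the adjusted p was 0.37. Without mutant C the log2 fold change was 0.17, and without mutant A it was 0.47 (limma adjusted p = 0.465). Wrap53, the head-to-head neighbour on the opposite strand, shares no exon base with Trp53 in the GENCODE annotation. Wrap53 was at 5.32 (A), 6.17 (B) and 5.04 FPKM (C) in the mutant, against 4.56 (A), 5.94 (B) and 5.47 FPKM (C) in the control libraries.

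Mdm2 (chromosome 10, 117688875 to 117710758), both the chief inhibitor of p53 and its target, stood at 22.1 (A), 19.3 (B) and 20.8 FPKM (C) in the mutant, against 23.5 (A), 23.9 (B) and 22 FPKM (C) in the control libraries. The range from the lowest to the highest library was 1.24-fold, and mutant A lay just above control C. The log2 fold change was -0.15 ± 0.09 (SE; limma adjusted p = 0.733), lower in each pair. Mdm4 (chromosome 1, 132986105 to 133030587), which binds p53 and blocks its activation domain, was at 12.2 (A), 15.2 (B) and 11.6 FPKM (C) in the mutant, against 10.4 (A), 13 (B) and 13.6 FPKM (C) in the control libraries. Its groups overlapped and the pairs differed in direction (0.21, 0.21 and -0.22; log2 fold change 0.07 ± 0.15 SE, limma adjusted p = 0.931). Per length, Trp53 RNA was the most abundant of these regulators in every library, followed by Mdm2. Trp53inp1, a nuclear protein that promotes p53 phosphorylation and autophagy, averaged 11.3 ± 3.87 FPKM in mutant and 11.2 ± 2.22 FPKM in control libraries (SD, n = 3 each), with pairs that moved apart: 0.74 in pair A, -0.11 in pair B and -0.68 in pair C.

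**Figure D2:**
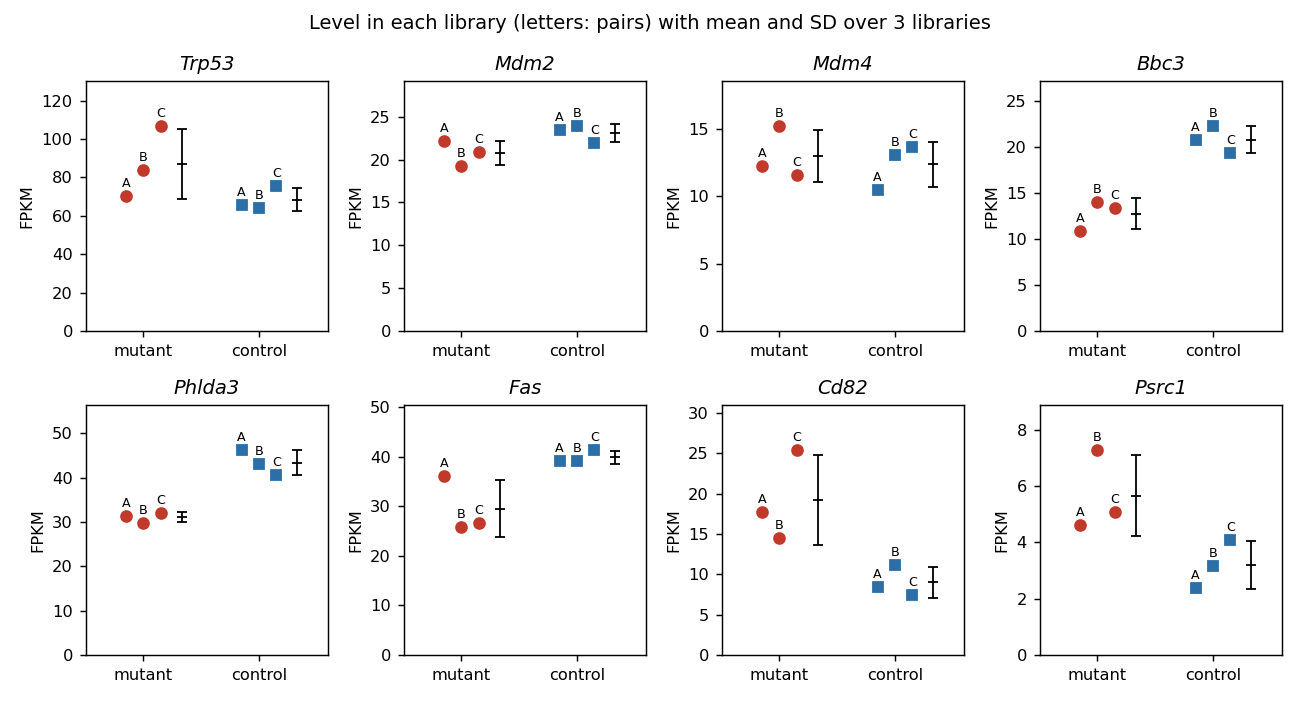
Level in FPKM of 3 regulators and of the 5 members whose groups did not overlap, in each library, with mutant libraries as circles on the left and control libraries as squares on the right; letters give the pair, and bars the mean ± SD over 3 libraries. The mutant values lie below every control value for Bbc3, Phlda3 and Fas and above every control value for Cd82 and Psrc1, while Trp53, Mdm2 and Mdm4 overlap.

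Among the genes of apoptosis, Bbc3 and Phlda3 were lower in every mutant library than in any control, and the other members overlapped. Bbc3 (chromosome 7, 16308398 to 16318334) encodes PUMA, a protein of the BH3-only group that releases Bax and Bak1 from their inhibitors. It stood at 10.9 (A), 14.1 (B) and 13.4 FPKM (C) in the mutant, against 20.8 (A), 22.3 (B) and 19.4 FPKM (C) in the control libraries. The highest mutant value was below the lowest control value, and mean levels were 12.8 ± 1.68 FPKM in mutant and 20.8 ± 1.45 FPKM in control libraries (SD, n = 3 each), a ratio of 0.614. The log2 fold change was -0.67 ± 0.12 (SE), with -0.87, -0.63 and -0.50 within pairs A, B and C. Its unadjusted p of 0.000968 ranked 49 of 11693 rows, and the adjusted p was 0.23 in limma and 0.169 with the block.

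Phlda3 (chromosome 1, 135766085 to 135769134) encodes a small membrane-lipid binding protein that competes with the kinase Akt for the membrane and so favours cell death. It was at 31.4 (A), 29.7 (B) and 32.1 FPKM (C) in the mutant, against 46.3 (A), 43 (B) and 40.7 FPKM (C) in the control libraries. The mutant libraries lay close together and all below the controls. The log2 fold change was -0.46 ± 0.09 (SE; -0.54, -0.52 and -0.33 within the pairs), at an unadjusted p of 0.00143 and a limma adjusted p of 0.262 (0.244 with the block). Both genes kept an unadjusted p under 0.05 in all 17 alternatives, the largest being 0.00512 for Bbc3 and 0.00939 for Phlda3, and neither had an adjusted p under 0.05 in any of them.

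The groups of the other apoptosis genes overlapped, and none of those tested had an unadjusted limma p under 0.05. Bax (chromosome 7, 45461695 to 45466903), which forms pores in the mitochondrial membrane, averaged 72.6 ± 9.41 FPKM in mutant and 76.6 ± 4.78 FPKM in control libraries. It was lower in each pair by 0.20, 0.03 and 0.02 (log2). Apaf1, the scaffold of the apoptosome, averaged 13.4 ± 2.58 FPKM in mutant and 11.6 ± 0.946 FPKM in control libraries. Pmaip1, which encodes the BH3-only protein Noxa, stood at 2.59 (A), 1.98 (B) and 4.8 FPKM (C) in the mutant, against 1.88 (A), 2.62 (B) and 1.95 FPKM (C) in the control libraries, and mutant C was the only mutant library above all controls. Aen, an exonuclease that digests DNA in dying cells, ranged from 5.68 to 13.3 FPKM in mutant and from 7.52 to 9.22 FPKM in control libraries. Ei24, a protein of the endoplasmic reticulum, had the smallest SE of the members and averaged 43.2 ± 1.58 FPKM in mutant and 41.1 ± 1.75 FPKM in control libraries, with 0.06, 0.08 and 0.08 within the pairs. In the authors' deposited table Ei24 had an unadjusted p of 0.00631, the smallest among the members, at a log2 fold change of 0.07; the unadjusted p of limma was 0.422. Of the 5 members whose groups did not overlap, 2 had an unadjusted p under 0.05 in the authors' deposited table (Phlda3 at 0.0198 and Bbc3 at 0.0267) and 3 did not (Psrc1 at 0.09, Cd82 at 0.115 and Fas at 0.116). Zmat3, an RNA-binding protein that acts on splicing, averaged 2.59 ± 0.659 FPKM in mutant and 3.39 ± 0.656 FPKM in control libraries and was lower in each pair (-0.21, -0.20 and -0.47; limma adjusted p = 0.749). Perp, a membrane protein of desmosomes, was under the minimum at 0.27 to 0.49 FPKM in mutant and 0.17 to 0.57 FPKM in control libraries and was not tested.

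Fas was lower in every mutant library, and the other receptors and Gdf15 overlapped between groups. Fas (chromosome 19, 34290647 to 34327775), the receptor of Fas ligand, was at 36.1 (A), 25.8 (B) and 26.6 FPKM (C) in the mutant, against 39 (A), 39.2 (B) and 41.4 FPKM (C) in the control libraries. The controls differed by little and the spread was in the mutants, where mutant A lay near the controls. The log2 fold change was -0.44 ± 0.14 (SE; -0.11, -0.58 and -0.62 within the pairs), with an unadjusted p of 0.0168 and a limma adjusted p of 0.545 (0.346 with the block). The unadjusted p was 0.0543 without control C, 0.0585 without mutant B and 0.053 without mutant C, and the limma adjusted p over all alternatives ran from 0.221 to 0.971. Tnfrsf10b, the mouse receptor of TRAIL, stood at 19.7 (A), 28.6 (B) and 31.3 FPKM (C) in the mutant, against 43 (A), 26.9 (B) and 32.5 FPKM (C) in the control libraries. Its lower mean came from pair A (-1.09, against 0.08 and -0.05 in pairs B and C), and with pairs B and C alone the log2 fold change was 0.02. Gdf15, a secreted stress cytokine, averaged 2.32 ± 0.513 FPKM in mutant and 2.97 ± 1.25 FPKM in control libraries. Eda2r, a receptor of ectodysplasin on the X chromosome, was under the minimum at 0.221 to 0.537 FPKM in mutant and 0.485 to 0.542 FPKM in control libraries.

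Of the 5 members that act on the cell cycle, Psrc1 was higher in every mutant library and the others overlapped between groups. Psrc1 (chromosome 3, 108383804 to 108388231) encodes a microtubule-associated protein of the mitotic spindle known as inducible by p53 in mouse cells. It was at 4.61 (A), 7.29 (B) and 5.08 FPKM (C) in the mutant, against 2.37 (A), 3.16 (B) and 4.09 FPKM (C) in the control libraries. The lowest mutant value was above the highest control value, although control C and mutant A differed by little. The log2 fold change was 0.66 ± 0.21 (SE; 0.74, 0.996 and 0.26 within the pairs), with an unadjusted p of 0.0176 and a limma adjusted p of 0.545 (0.323 with the block). The unadjusted p was 0.0539 without control A and 0.0541 without mutant B, and the limma adjusted p over the alternatives ran from 0.318 to 0.951. Ccng1 (cyclin G1, which brings a phosphatase to Mdm2) averaged 7.6 ± 0.333 FPKM in mutant and 7.73 ± 0.494 FPKM in control libraries, and its highest library was 1.14 times its lowest. Ccng2 (cyclin G2, an inhibitory cyclin) averaged 29.4 ± 3.78 FPKM in mutant and 31.2 ± 6.08 FPKM in control libraries, with 0.47 in pair A against -0.29 and -0.38 in pairs B and C. Plk2, a kinase that controls centriole duplication, was the most abundant member per length at 253 ± 22.4 FPKM in mutant and 267 ± 72.9 FPKM in control libraries. Plk3, its stress-responsive relative, averaged 12.7 ± 3.4 FPKM in mutant and 12.2 ± 1.05 FPKM in control libraries. Plk3 shares 84 exon bases with Tctex1d4 on the opposite strand, which had a mean of 0.121 FPKM.

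Genes of mitosis were read beside Psrc1. All 15 genes of the G2 and M phase list had a higher mean in the mutant, with a median log2 fold change of 0.58, and 0 of them passed; 8 had an unadjusted p under 0.05, which is 53.3% against 3.81% of all rows. With the pair as a block 3 of the 15 had one, which is 20% against 5.39% of all rows. Birc5, the apoptosis inhibitor and mitotic regulator survivin, averaged 36.2 ± 9.63 FPKM in mutant and 22.4 ± 3.57 FPKM in control libraries (limma adjusted p = 0.535), and the kinase Cdk1 21.4 ± 4.36 FPKM in mutant and 14 ± 3.52 FPKM in control libraries (limma adjusted p = 0.593). Within pairs A, B and C the median of the list was 0.04, 1.28 and 0.38, beside 0.74, 0.996 and 0.26 for Psrc1: pair B was highest in both, and in pair A Psrc1 lay above every gene of the list. The part of cell division in the Psrc1 difference was not tested.

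**Figure D3:**
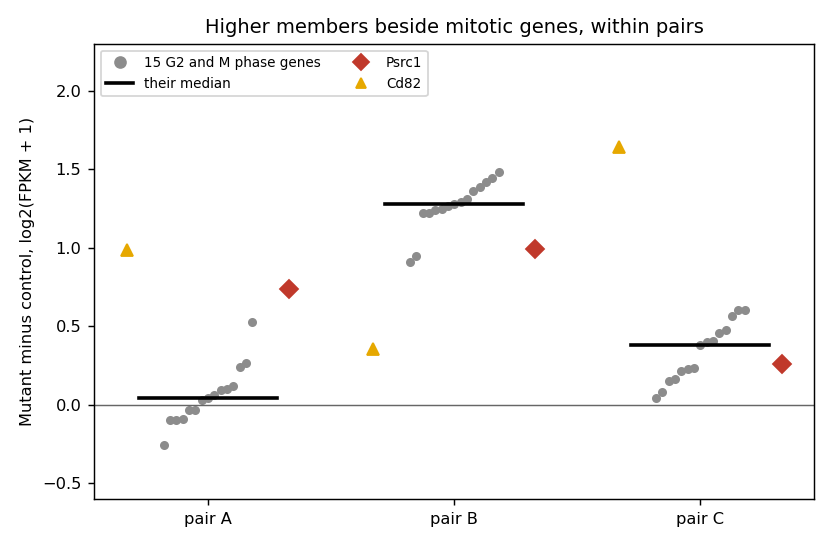
Mutant minus control within each pair on the log2(FPKM + 1) scale for 15 genes of G2 and M phase (grey points, with their median as a bar), Psrc1 (diamonds) and Cd82 (triangles). The median of the mitotic genes is 0.04, 1.28 and 0.38 in pairs A, B and C, where Psrc1 is at 0.74, 0.996 and 0.26 and Cd82 at 0.99, 0.35 and 1.64.

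Cd82 was the member with the largest difference. Cd82 (chromosome 2, 93419102 to 93462950) encodes a tetraspanin, a membrane protein that organises integrins and growth factor receptors and was first known as a suppressor of metastasis. It stood at 17.7 (A), 14.6 (B) and 25.4 FPKM (C) in the mutant, against 8.41 (A), 11.2 (B) and 7.48 FPKM (C) in the control libraries. All mutant libraries were above all controls, mutant C most, and mean levels were 19.2 ± 5.6 FPKM in mutant and 9.02 ± 1.92 FPKM in control libraries, a ratio of 2.13. The log2 fold change was 0.99 ± 0.22 (SE; 0.99, 0.35 and 1.64 within the pairs), and 0.462% of all tested rows had a change as large in this direction. The unadjusted p was 0.00317 and the limma adjusted p 0.341 (0.307 with the block). The unadjusted p stayed under 0.05 in all 17 alternatives, at most 0.03, and the limma adjusted p ran from 0.217 to 0.889. Leukocytes also carry Cd82; their summed markers were 35.8 (A), 9.21 (B) and 5.25 FPKM (C) in the mutant, against 21 (A), 39.3 (B) and 8.75 FPKM (C) in the control libraries, so that mutant C, with the highest Cd82, had the lowest leukocyte sum; their part in the difference was not tested. Ak1, an adenylate kinase, had the largest SE of the members, at 1.94 (A), 4.39 (B) and 2.85 FPKM (C) in the mutant, against 1.65 (A), 5.4 (B) and 5.63 FPKM (C) in the control libraries. Its values were low in both libraries of pair A.

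The sestrins, which restrain the growth kinase complex mTORC1 and limit oxidative stress, and the repair genes overlapped between groups. None of them had an unadjusted limma p under 0.05. Sesn1 averaged 13.5 ± 2.09 FPKM in mutant and 12 ± 2.23 FPKM in control libraries, Sesn2 3.68 ± 0.493 FPKM in mutant and 3.73 ± 0.605 FPKM in control libraries, and Sesn3 3.76 ± 0.855 FPKM in mutant and 4.21 ± 1.35 FPKM in control libraries. Sesn1 was thus the main sestrin RNA per length in all 6 libraries. Of the repair genes, Xpc, which detects damaged DNA, averaged 13 ± 2.72 FPKM in mutant and 10.6 ± 1.98 FPKM in control libraries, and its partner in damage recognition Ddb2 4.76 ± 0.822 FPKM in mutant and 4.68 ± 0.368 FPKM in control libraries. Ddb2 shares 652 exon bases with Acp2 on the opposite strand, which had a mean of 11.6 FPKM, and no source says if reads were counted by strand, so the Ddb2 level is uncertain. The same holds for Ei24 and Rrm2b, which share 324 and 734 exon bases with an antisense gene each, and for Bax, which shares 192 exon bases with a gene on its own strand. Ercc5, the nuclease that cuts on the 3′ side of a lesion, averaged 7.22 ± 1.08 FPKM in mutant and 7.47 ± 1.01 FPKM in control libraries. Polk, a polymerase that copies past lesions, averaged 3.45 ± 0.232 FPKM in mutant and 3.8 ± 0.365 FPKM in control libraries. Rrm2b, the subunit of ribonucleotide reductase that supplies DNA precursors outside S phase, averaged 5.03 ± 0.472 FPKM in mutant and 5.56 ± 0.322 FPKM in control libraries. Rrm2b was lower in each pair (-0.14, -0.06 and -0.18), as was Polk (-0.18, -0.004 and -0.14), with limma adjusted p of 0.826 and 0.869. The adjusted p of all 8 sestrin and repair genes was at least 0.773.

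**Figure D4:**
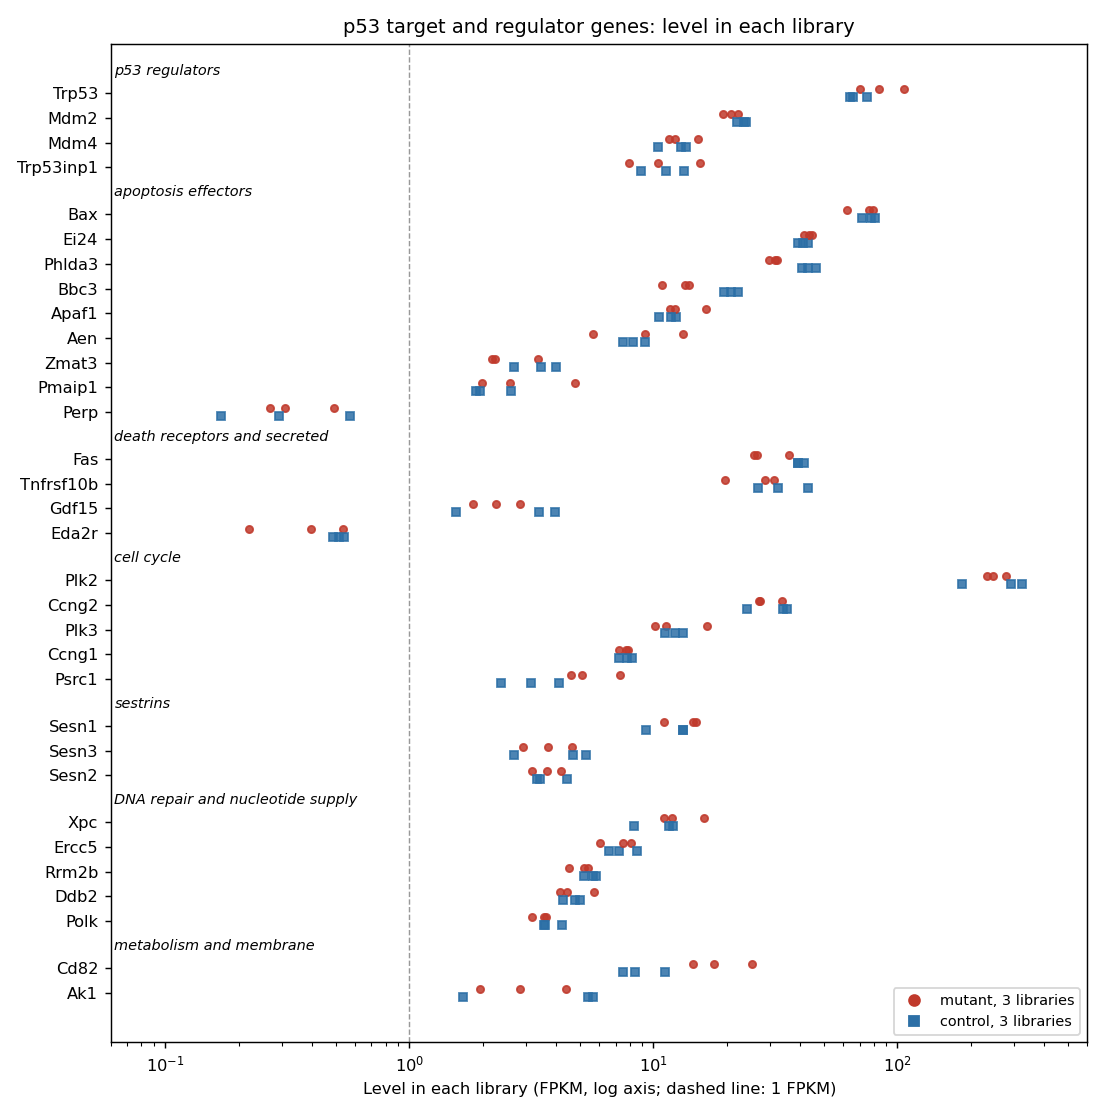
Level of all 32 members in each library in FPKM on a log axis, grouped by role and ordered by mean within a role, with mutant libraries as circles above control libraries as squares. Plk2 is highest at 185 to 324 FPKM, Trp53 and Bax follow at 61.9 to 107 FPKM, and Perp and Eda2r lie below the dashed line at 1 FPKM.

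As a group the members covered a wide range of levels. Per length, 3 had a mean of at least 50 FPKM (Plk2, Trp53 and Bax), 14 a mean of 10 to 50 FPKM, 13 a mean of 1 to 10 FPKM and 2 a mean under 1 FPKM. The SE of the log2 fold change ran from 0.09 for Ei24 to 0.40 for Ak1, with a median of 0.17.

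Other genes of the pathway were read from lists beside the members. Of 23 further p53 targets, 20 were tested and 0 passed. At an unadjusted p under 0.05, 1 was lower and 1 higher, which is 5% each way against 4.29% and 3.81% of all rows. With the block 0 were lower and 2 higher, which is 0% and 10% against 6.88% and 5.39% of all rows. The median log2 fold change was 0.09. Cdkn1a, the cell cycle inhibitor p21 and the best known target of p53, stood at 56.6 (A), 37.8 (B) and 33 FPKM (C) in the mutant, against 62.3 (A), 36.7 (B) and 46 FPKM (C) in the control libraries. Its groups overlapped (log2 fold change -0.19 ± 0.25 SE, limma adjusted p = 0.885). Pidd1, a scaffold that links p53 to caspase-2 activation, averaged 4.44 ± 0.914 FPKM in mutant and 2.4 ± 0.279 FPKM in control libraries (0.67 ± 0.16 SE, limma adjusted p = 0.391). Epha2, an ephrin receptor, averaged 43.6 ± 11.2 FPKM in mutant and 61.6 ± 6.62 FPKM in control libraries (-0.52 ± 0.20 SE, limma adjusted p = 0.593). Of the 20 tested, 3 were higher in every mutant library than in any control, Pidd1 among them, and 1 was lower, Epha2. These are 15% and 5%, against 7.12% and 6.57% of all rows.

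Among the 15 upstream kinases and cofactors of p53, 12 had a higher and 3 a lower mean in the mutant, 0 passed, and the median log2 fold change was 0.08; 2 were higher at an unadjusted p under 0.05, which is 13.3% against 3.81% of all rows. The checkpoint kinases had the lowest p of that list: Chek2 was at 5.03 (A), 6.72 (B) and 6.5 FPKM (C) in the mutant, against 3.55 (A), 3.35 (B) and 4.1 FPKM (C) in the control libraries (0.60 ± 0.14 SE, limma adjusted p = 0.384). Chek1 was at 2.97 (A), 4.15 (B) and 3.4 FPKM (C) in the mutant, against 2.67 (A), 1.63 (B) and 1.78 FPKM (C) in the control libraries (0.58 ± 0.18 SE, limma adjusted p = 0.545). Both were higher in every mutant library than in any control, as the only 2 genes of the list, which is 13.3% against 7.12% of all rows.

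Of 17 tested genes of the BCL2 family and caspases, 13 had a higher mean in the mutant, 0 passed and the median was 0.06; 2 were higher at an unadjusted p under 0.05, or 11.8% against 3.81% of all rows, and 4 with the block, or 23.5% against 5.39%. Diablo, which frees caspases from their inhibitors, was at 14.1 (A), 13.9 (B) and 14.5 FPKM (C) in the mutant, against 15.1 (A), 16.5 (B) and 15.1 FPKM (C) in the control libraries; it was the 1 gene of that list lower in every mutant library (limma adjusted p = 0.763) and was singled out after its values were seen. Casp8, the caspase that Fas activates, averaged 45.5 ± 6.17 FPKM in mutant and 35.1 ± 1.02 FPKM in control libraries (0.36 ± 0.12 SE, limma adjusted p = 0.546). Bbc3 and Fas thus lay lower and Casp8 higher in each mutant library than in any control, in each case without passing the test. In the list of the BCL2 family and caspases 2 genes were higher and 1 lower in this way. These are 11.8% and 5.88%, against 7.12% and 6.57% of all rows.

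The remaining lists had 0 genes that passed. The 14 genes of excision repair and translesion synthesis had a median of 0.13, with 12 higher in mean; Rpa1, which coats single-stranded DNA, averaged 29.9 ± 4.37 FPKM in mutant and 23.4 ± 0.551 FPKM in control libraries, and the polymerase subunit Rev3l 10.5 ± 0.692 FPKM in mutant and 8.89 ± 0.836 FPKM in control libraries. The 8 tested FoxO factors and targets had a median of 0.01; Foxo1 averaged 44.5 ± 9.83 FPKM in mutant and 37.3 ± 4.92 FPKM in control libraries, and Cited2 15 ± 5.81 FPKM in mutant and 11.3 ± 4.32 FPKM in control libraries. The 9 tested genes of the integrated stress response had a median of 0.01; the serine synthesis enzyme Psat1 averaged 11.7 ± 3.29 FPKM in mutant and 6.97 ± 0.752 FPKM in control libraries, and Ppp1r15a 82.3 ± 3.53 FPKM in mutant and 73.5 ± 18.8 FPKM in control libraries. The 10 immediate early and dissociation stress genes had a median of 0.08, with pair medians of 0.79, -0.29 and 0.31; Fosb averaged 120 ± 18.9 FPKM in mutant and 75.6 ± 31.6 FPKM in control libraries, and Dusp1 225 ± 51 FPKM in mutant and 321 ± 95.2 FPKM in control libraries.

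**Figure D5:**
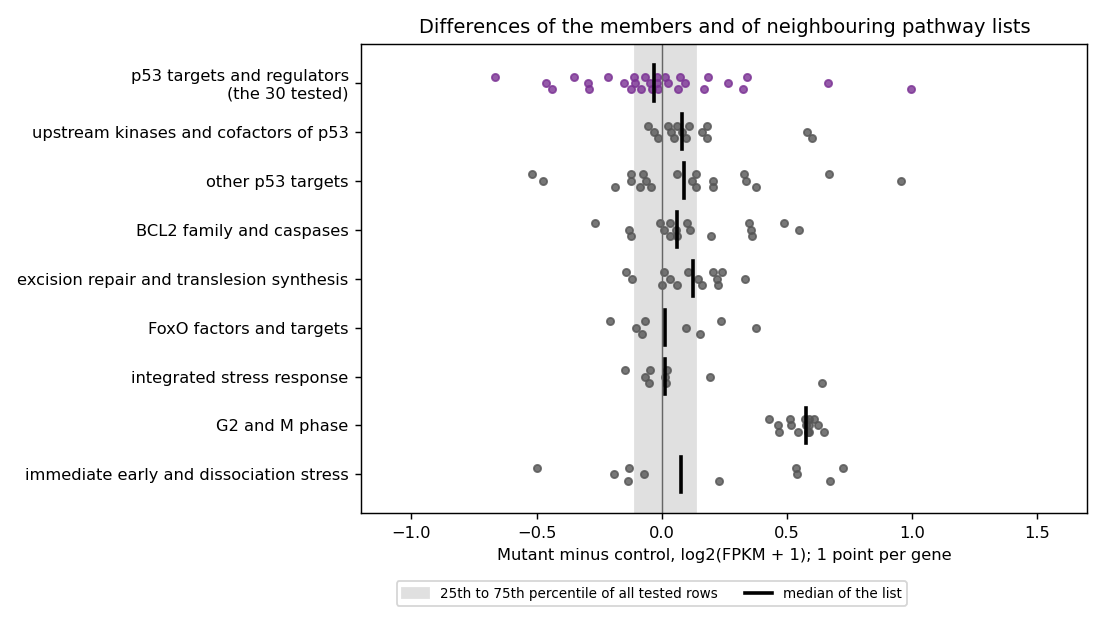
Mutant minus control on the log2(FPKM + 1) scale for the 30 tested members (top row) and the tested genes of 8 neighbouring lists, 1 point per gene, with the median of each list as a bar and the 25th to 75th percentile of all tested rows as a grey band (-0.11 to 0.14). The median is -0.03 for the members and 0.09 for the other p53 targets, and the 15 G2 and M phase genes lie together around 0.58.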

How the data were processed

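Paired reads of 76 nt from poly(A)-selected RNA (100 to 200 ng of total RNA) were aligned to mouse build mm10, per the labels' protocols, and the submitters' processing notes name Cufflinks 2.2.1, Cuffdiff, Bowtie2 2.2.3 and TopHat2 2.0.14. The authors deposited FPKM per library with a log2 fold change and an unadjusted p-value, which hold spreadsheet errors in 9455 of 23793 rows; the unit was inferred from these tools and the values. Strand use and depth are not given in the sources used here, and FPKM allow no count model.

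log2(FPKM + 1) was compared with limma 3.58.1 (R 4.3.3, empirical Bayes with trend, two-sided, Benjamini-Hochberg adjustment over 11693 rows averaging 1 FPKM or more) and was tested on simulated data; fold changes on this scale understate those of low genes. Errors are SD for levels and SE for fold changes. The labels do not say that each library came from its own animal, so p-values measure the spread between these libraries. The members and lists were chosen with earlier results of these data known. All members are named, with every library given for Trp53, Mdm2, Mdm4 and members with an unadjusted p under 0.05 or groups apart; other lists give up to 2 genes of lowest p, and Cdkn1a; the other genes of these lists are given only in counts and medians, and not all could be named here. Marker sums without Cldn5 or Cav1 were added after the values were seen. Pair letters come from the titles: deviations from group means correlated at 0.361, 0.268 and 0.191 within pairs A, B and C (threshold 0.1). The alternatives changed the pseudocount, filter, scaling or variance model, or used a block, a batch term, pairs B and C alone, and each library left out. Sequences and gene positions are from RefSeq (GRCm38.p6), and shared exon bases from GENCODE.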

Additional observations from a re-analysis of the deposited data

How the results depend on the processing

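Under all 17 alternatives 0 members had an adjusted p under 0.05. Bbc3, Phlda3 and Cd82 kept their direction and an unadjusted p under 0.05 throughout. The number of genes called over the whole table was 16, against 10 with a minimum mean of 5 FPKM, 6 with the pair as a replicate block, 6 with pairs B and C alone, and 6 to 10 with 1 library left out. The minimum of 5 FPKM removed Psrc1 and left 21 members tested. Of these, 1 was higher (Cd82) and 3 lower at an unadjusted limma p under 0.05, beside 338 higher and 383 lower of 8839 rows. The same 1 and 3 members were higher and lower in every mutant library. With pairs B and C alone 11 members were lower and 5 higher in every mutant library. These counts were 3 to 8 and 2 to 4 with 1 library left out. A smaller number of libraries alone makes such counts larger. The share of all rows with groups apart was not computed in these settings, so the counts with groups apart are not read as a result about the members. With 1 library left out, 1 to 3 of the 30 tested members were higher at an unadjusted limma p under 0.05, and 2 to 4 were lower. Over all rows, of which 11642 to 11733 were tested in these settings, 257 to 682 were higher and 307 to 681 lower at that threshold. The median over the members ran from -0.0669 to 0.0412 with 1 library left out. Mdm4, at 0.07 with all libraries, was -0.0053 with pairs B and C alone and ran from -0.0445 to 0.138 with 1 library left out; the cause was not tested. In all, 14 of the 30 tested members changed sign in at least 1 alternative, each with a main log2 fold change of at most 0.35 in size, among them Trp53inp1 (-0.395 to 0.188), Aen (-0.171 to 0.377), Plk2 (-0.284 to 0.121) and Plk3 (-0.167 to 0.16). The block changed no call of a member. Depth limits the members under 1 FPKM, Perp and Eda2r.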
